A study of Mus musculus with 3 samples.

Results

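The genes described here are 45 genes of G2 and mitosis, taken by name from a table of 21899 gene symbols, and each of the 45 names matched 1 line of that table. They encode the cyclins and CDK1, the kinases that drive mitosis, the motors and kinetochore proteins of the spindle, partners and substrates of the anaphase-promoting complex, and proteins of cytokinesis. The rule takes genes by name and uses no measured value, but the list of names was drawn up with earlier results of these data known. The cells were MIN6, an insulin-secreting and dividing line from a mouse insulinoma that arose in beta cells carrying the SV40 large T antigen. There were 3 groups of 1 library each: cells given siRNA against Srsf1 (siSRSF1), cells given siRNA against Srsf2 (siSRSF2) and cells given a negative control siRNA (siNC). SRSF1 (also ASF) and SRSF2 (also SC35) are SR proteins, which bind exons and promote splicing, and the design asks how RNA levels in these cells differ when either is targeted. With 1 library a group there is no replicate check, no test between groups and no p-value. Each ratio is given with its 95% counting interval, which covers the counting error of the 2 libraries compared and no difference between cultures.

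The genes of G2 and mitosis form one of the best known expression programmes of a dividing cell. Their RNAs are low after division, accumulate through S phase and peak between G2 and mitosis, under the DREAM and MMB complexes, the transcription factor FOXM1 and the CCAAT-binding factor NF-Y. Cyclin B with CDK1 starts mitosis, Polo-like and Aurora kinases build the spindle, kinetochores tie chromosomes to it, and the anaphase-promoting complex then marks securin and the cyclins for destruction. Since cells outside the late cell cycle hold little of these RNAs, fewer cells in G2 and mitosis and less RNA per such cell cannot be told apart in bulk RNA.

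Library totals were 14478045 reads for siSRSF1, 14682576 for siSRSF2 and 12688334 for siNC. Srsf1 was at 0.683 of siNC in the siSRSF1 library (0.652 to 0.716) and Srsf2 at 0.343 of siNC in the siSRSF2 library (0.308 to 0.381), so both targets were lower under their own label. Srsf1 was also below siNC in the siSRSF2 library, at 0.847 (0.811 to 0.884), and Srsf2 stood at 0.957 (0.884 to 1.04) in the siSRSF1 library. All 9 beta-cell markers had reads in every library, and together they held 63626 scaled counts per 1000000 reads (CPM) in siSRSF1, 70841 in siSRSF2 and 68178 in siNC. Single markers differed more than the sum: the ratio of Mafa to siNC was 2.47 in siSRSF1 and 1.9 in siSRSF2, with Nkx6-1 at 1.9 and 2.1, Slc30a8 at 0.892 and 0.527, and Chgb at 0.649 and 0.787. The hormone genes of other islet cells were also detected, with Gcg at 2016, 2029 and 1494 reads and Sst at 339, 199 and 262 reads in siSRSF1, siSRSF2 and siNC. Of 5 acinar and ductal markers, the summed reads were 3 in siSRSF1, 0 in siSRSF2 and 4 in siNC. The 6 fibroblast, endothelial and immune markers summed to 17.1, 4.34 and 5.25 CPM in siSRSF1, siSRSF2 and siNC. Of these 6, Col3a1 was at 0 reads in each library, and Cd68 made up most of the siSRSF1 sum, with 232 reads in siSRSF1, 55 in siSRSF2 and 56 in siNC. The part of these marker differences in the values below was not tested.

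As a group, the mitotic genes were lower in the siSRSF2 library and close to the control level in the siSRSF1 library. All 45 had at least 20 reads in 1 library of each pair, the minimum for a comparison. In siSRSF2 against siNC, 42 of the 45 had a ratio below 1, against 47.4% of the 11611 genes compared, and the interval lay wholly below 1 for 39 members, against 25.4% of all genes. A gene was called lower when its ratio was at most 0.8, and higher when it was at least the inverse of 0.8, provided that the interval excluded 1. By that rule 26 members were lower and 0 were higher in siSRSF2, while 13.2% of all genes were lower and 16.6% were higher. The median log2 ratio was -0.38 over the members and 0.02 over all genes. No member was called at 2-fold, a size that 3.55% of all genes passed in either direction.

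The siSRSF1 library did not share that shift. Of the members, 19 had a ratio to siNC below 1 and 26 above 1, where 49.5% of all genes lay below 1, and the median log2 ratio was 0.02, against 0.0 over all 11602 genes compared. By the same rule 1 member was called lower (Kif18a) and 2 higher (Cdc25b and Cdc20), against 12.2% and 14.7% of all genes. The interval lay wholly below 1 for 7 members, against 25.5% of all genes. It lay wholly above 1 for 13 members, against 3159 of the 11602 genes. None was called at 2-fold, against 3.6% of all genes. Both comparisons use the same siNC library. The siSRSF2 and siSRSF1 libraries were therefore also compared directly, which leaves siNC out. In siSRSF2 against siSRSF1, 26 members were called lower and 1 higher, against 15.4% and 17.5% of 11705 genes, and none was called at 2-fold, against 4.37%. There 42 members had a ratio below 1, against 49.3% of all genes, and 41 an interval wholly below 1, against 29.0%. The median log2 ratio was -0.40 over the members and 0.01 over all genes.

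**Figure D1:**
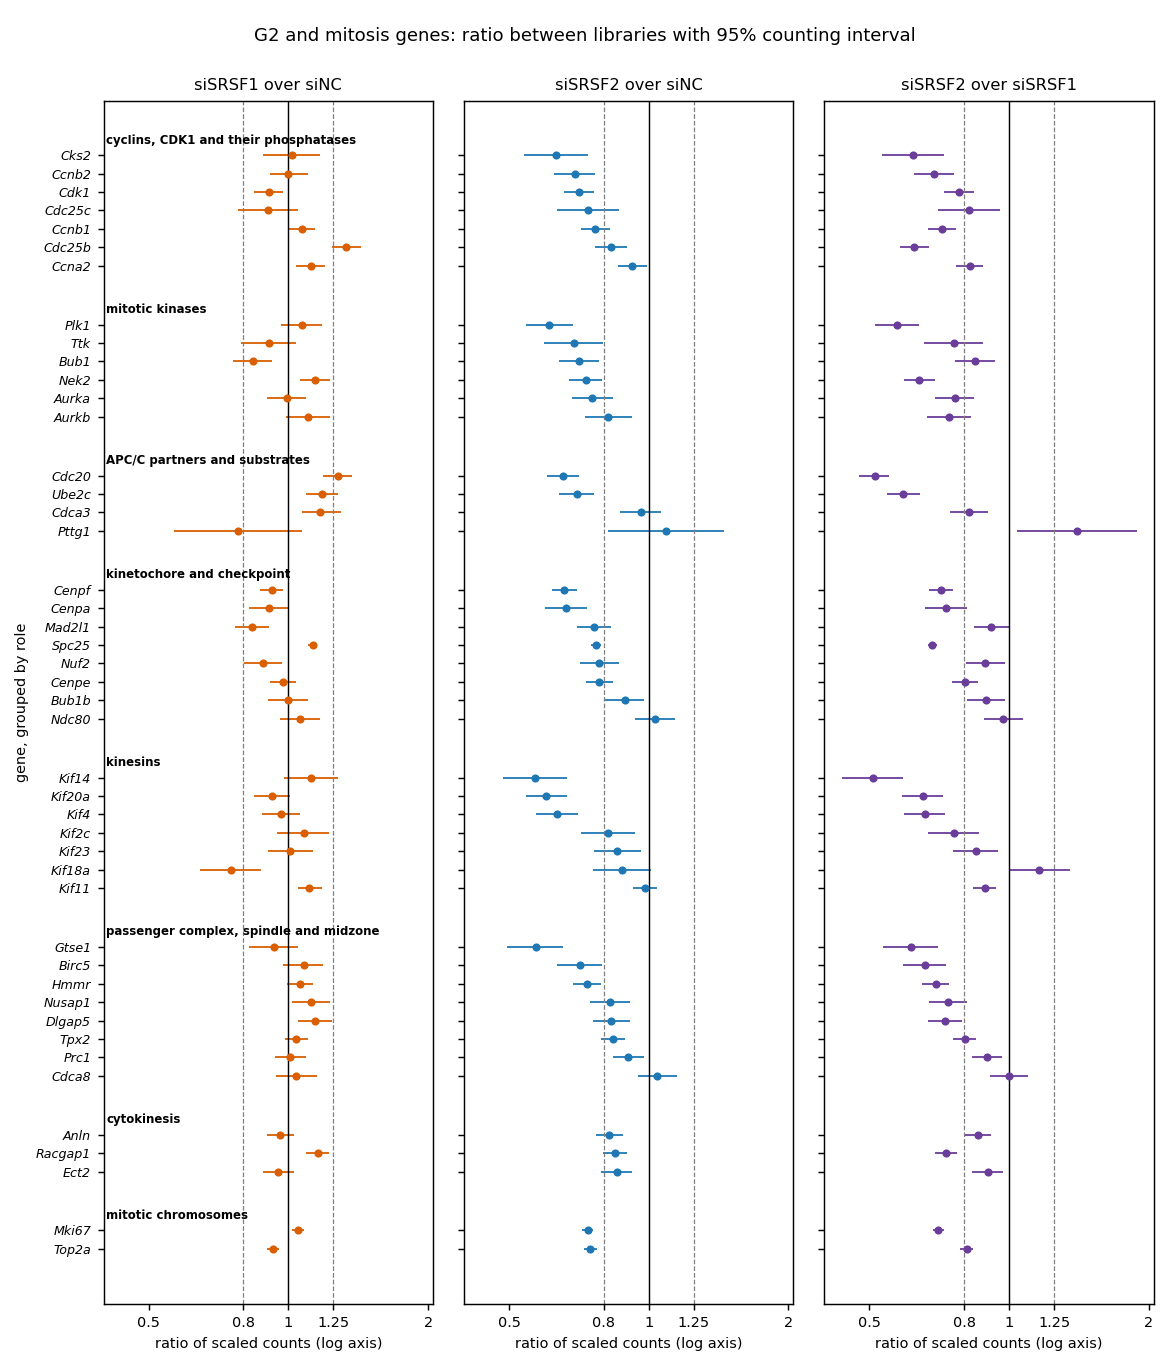
Ratio of scaled read counts for each of the 45 genes, grouped by role, in siSRSF1 over siNC, siSRSF2 over siNC and siSRSF2 over siSRSF1. Points are ratios on a log axis, bars are 95% counting intervals, the solid line marks 1 and the dashed lines mark 0.8 and its inverse. In siSRSF2 over siNC 42 points lie left of 1, while the siSRSF1 points lie on both sides.

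The summed level of the 45 genes was 6264.5 CPM in siSRSF1, 4641.7 CPM in siSRSF2 and 6005.8 CPM in siNC. The summed ratio to siNC was 1.04 (1.03 to 1.05) in siSRSF1 and 0.773 (0.765 to 0.781) in siSRSF2. Spc25, Mki67 and Top2a held much of this sum, and without these 3 genes the ratio was 1.04 in siSRSF1 and 0.786 in siSRSF2. Gene by gene, the siSRSF2 library had the lowest CPM of the 3 libraries for 41 of the 45 members, against 33.2% of 11756 genes, and the siSRSF1 library had the highest for 25, against 34.0%. The 4 members whose lowest value lay elsewhere were Pttg1 and Kif18a, lowest in siSRSF1, and Ndc80 and Cdca8, lowest in siNC.

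Promoters of this programme are known for NF-Y boxes (CCAAT) and for the cell cycle genes homology region (CHR), the element that DREAM and MMB bind, whose usual form is TTTGAA. Promoter windows of 300 bases, from 250 before to 50 after the RefSeq start on GRCm38.p6, were found for 39 of the 45 members. Both motifs were searched on both strands, as CCAAT or ATTGG and as TTTGAA or TTCAAA, with overlaps allowed. The windows of Kif14, Plk1, Cdc20, Ube2c and Ccnb2 are shown as genes called lower in siSRSF2, and those of Cdca8 and Pttg1 as genes that were not. Capitals mark the motif letters. The windows lie at chr1:136467598-136467897 (plus strand) for Kif14, chr7:122159185-122159484 (plus strand) for Plk1, chr4:118437294-118437593 (minus strand) for Cdc20 and chr2:164769679-164769978 (plus strand) for Ube2c. They lie at chr9:70421505-70421804 (minus strand) for Ccnb2, chr4:124936868-124937167 (minus strand) for Cdca8 and chr11:43425932-43426231 (minus strand) for Pttg1.
Kif14: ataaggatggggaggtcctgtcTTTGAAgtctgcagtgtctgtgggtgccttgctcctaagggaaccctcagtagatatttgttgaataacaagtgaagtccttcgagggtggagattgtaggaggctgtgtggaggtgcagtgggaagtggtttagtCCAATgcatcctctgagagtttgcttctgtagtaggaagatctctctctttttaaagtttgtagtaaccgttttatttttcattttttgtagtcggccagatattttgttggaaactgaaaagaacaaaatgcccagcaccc
Plk1: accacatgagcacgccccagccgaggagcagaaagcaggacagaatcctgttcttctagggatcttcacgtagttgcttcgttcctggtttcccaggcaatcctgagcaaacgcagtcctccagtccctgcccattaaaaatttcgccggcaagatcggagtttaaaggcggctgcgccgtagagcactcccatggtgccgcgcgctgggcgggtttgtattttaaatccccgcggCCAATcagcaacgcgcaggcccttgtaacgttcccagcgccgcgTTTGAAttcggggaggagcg
Cdc20: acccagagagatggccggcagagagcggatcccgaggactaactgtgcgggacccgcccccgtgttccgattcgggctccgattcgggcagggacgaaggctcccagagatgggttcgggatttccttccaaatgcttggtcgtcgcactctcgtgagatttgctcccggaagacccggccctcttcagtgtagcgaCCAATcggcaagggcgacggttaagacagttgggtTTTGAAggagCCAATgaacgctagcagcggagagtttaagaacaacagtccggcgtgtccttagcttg
Ube2c: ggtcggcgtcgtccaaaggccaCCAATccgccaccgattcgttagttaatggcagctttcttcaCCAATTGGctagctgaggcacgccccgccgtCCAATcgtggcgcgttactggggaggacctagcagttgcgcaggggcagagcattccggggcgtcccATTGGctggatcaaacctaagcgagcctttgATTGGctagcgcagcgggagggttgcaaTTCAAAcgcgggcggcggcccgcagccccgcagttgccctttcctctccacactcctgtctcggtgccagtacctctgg
Ccnb2: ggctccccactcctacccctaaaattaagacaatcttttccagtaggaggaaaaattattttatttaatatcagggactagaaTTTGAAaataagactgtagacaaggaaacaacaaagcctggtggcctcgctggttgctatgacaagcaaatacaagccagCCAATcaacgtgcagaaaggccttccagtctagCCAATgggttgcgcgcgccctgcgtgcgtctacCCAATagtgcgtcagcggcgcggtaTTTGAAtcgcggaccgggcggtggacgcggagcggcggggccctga
Cdca8: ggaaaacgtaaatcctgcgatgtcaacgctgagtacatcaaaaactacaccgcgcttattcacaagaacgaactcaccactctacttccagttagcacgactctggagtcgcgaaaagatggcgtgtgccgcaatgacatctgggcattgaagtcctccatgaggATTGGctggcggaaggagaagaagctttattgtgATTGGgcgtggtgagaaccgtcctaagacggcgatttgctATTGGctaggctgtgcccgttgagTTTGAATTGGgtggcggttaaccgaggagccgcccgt
Pttg1: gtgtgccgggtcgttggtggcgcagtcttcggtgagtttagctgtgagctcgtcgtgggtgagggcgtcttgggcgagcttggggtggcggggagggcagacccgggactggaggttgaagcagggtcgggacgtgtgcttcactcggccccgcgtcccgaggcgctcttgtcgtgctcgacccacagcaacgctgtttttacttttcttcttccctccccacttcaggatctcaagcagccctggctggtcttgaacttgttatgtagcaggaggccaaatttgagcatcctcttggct
The Kif14 and Plk1 windows hold 1 NF-Y box and 1 CHR each. The Cdc20 window holds 2 NF-Y boxes and 1 CHR, that of Ccnb2 holds 3 and 2, and that of Ube2c holds 6 and 1, with boxes of both strands overlapping in one place. The Cdca8 window holds 4 NF-Y boxes and 1 CHR, and one of the boxes overlaps the CHR. The Pttg1 window holds neither. The windows of Kif14, Cdca8 and Pttg1 lie wholly inside the annotated spans of their genes. These spans are 136466343 to 136531511 for Kif14, 124918465 to 124939311 for Cdca8 and 43420250 to 43426251 for Pttg1. For these genes the sequence upstream of the span was not searched, so neither the motifs found nor their absence describes it. The presence of letters is a description of the window, not of a bound site.

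Of the 39 members with a window, 23 (59.0%) held an NF-Y box and a CHR in the same window, against 5.78% of 9308 compared genes and 7.97% of all 27025 genes with a window. A CHR was found in 66.7% of members and 13.9% of compared genes, at least 1 NF-Y box in 76.9% and 43.9%, and 2 or more boxes in 53.8% and 17.4%. Among 30 genes of G1/S and replication with a window, 70.0% held at least 1 NF-Y box, 46.7% held 2 or more, 20% a CHR and 13.3% both elements. The members with both elements had a median ratio of 0.739 in siSRSF2 over siNC, with 15 of 23 called lower, and the 7 with an NF-Y box alone had a median of 0.731, with 6 called lower. The 3 with a CHR alone (Ndc80, Kif2c and Anln) had a median of 0.822, with none called, and the 6 with neither had 0.803, with 3 called lower. These counts stand beside 26 of all 45 members and 13.2% of all genes called lower. The ranges of these classes overlapped, and differences between the classes were not tested. Kif14 and Cdca8 count among the members with both elements, and Pttg1 among those with neither, by windows that lie inside their genes.

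**Figure D2:**
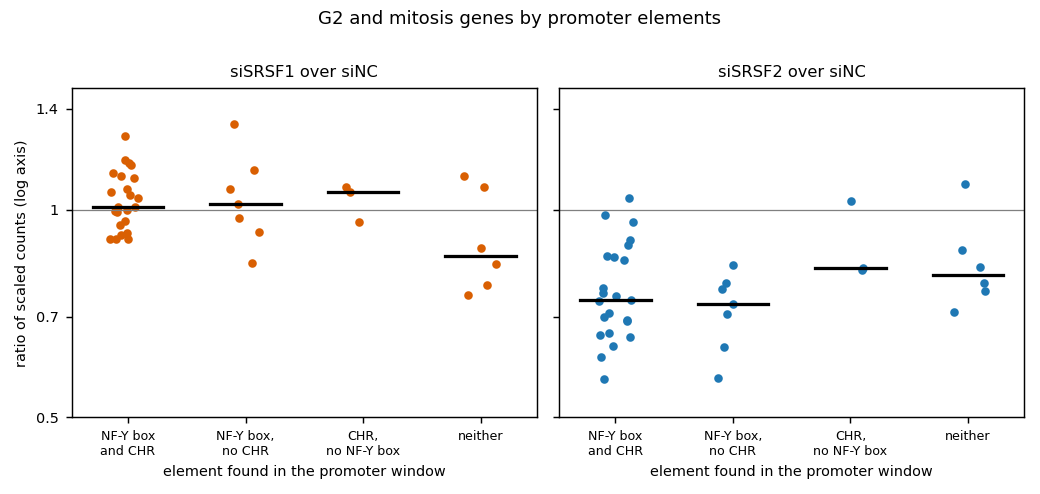
Ratio to siNC on a log axis for the 39 members with a promoter window, by the element found in it, in siSRSF1 (left) and siSRSF2 (right). Points are genes and bars are class medians. In siSRSF2 the medians are 0.739 for both elements, 0.731 for the NF-Y box alone, 0.822 for the CHR alone and 0.803 for neither, and the classes overlap.

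Cyclins, CDK1 and its phosphatases were lower in siSRSF2, with 5 of 7 called and a median log2 ratio of -0.43. Ccnb1, which encodes cyclin B1, had 138.2 CPM in siSRSF1, 99.1 in siSRSF2 and 129.2 in siNC, a ratio of 0.767 (0.714 to 0.824) in siSRSF2 over siNC. Ccnb2, the other main B-type cyclin, had 67.1, 46.3 and 66.8 CPM in siSRSF1, siSRSF2 and siNC, a siSRSF2 ratio of 0.693 (0.625 to 0.767). For both cyclins siSRSF2 stood below the other two libraries, and the siSRSF1 ratios to siNC were 1.07 and 1.0. Cdk1 itself had 109.6 CPM in siSRSF1, 85.6 in siSRSF2 and 120.8 in siNC, a siSRSF2 ratio of 0.708 (0.657 to 0.764). Cks2, a small subunit that docks CDK1 to its substrates, had the lowest siSRSF2 ratio of this group, 0.632 (0.539 to 0.739). Cyclin A2, which acts from S phase on, was the least lowered: Ccna2 had a siSRSF2 ratio of 0.921 (0.857 to 0.989), an interval that does not overlap that of Ccnb1.

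The 2 CDC25 phosphatases, which remove the inhibitory phosphates from CDK1, differed in siSRSF1. Cdc25b had 135.0 CPM in siSRSF1, 84.4 in siSRSF2 and 101.8 in siNC. It was the member with the highest siSRSF1 ratio to siNC, 1.33 (1.24 to 1.43), and its ratio in siSRSF2 was 0.83 (0.767 to 0.897). Cdc25c had 25.5, 20.9 and 28.2 CPM in siSRSF1, siSRSF2 and siNC, with a siSRSF1 ratio of 0.904 (0.779 to 1.05) and a siSRSF2 ratio of 0.74 (0.634 to 0.864). Cdc25c overlaps the predicted gene Gm3550 on the other strand, which had 17, 14 and 6 reads in siSRSF1, siSRSF2 and siNC. Also on the other strand, Cdc25b overlaps Spef1, with 58, 97 and 118 reads, and Ccna2 overlaps Exosc9, with 415, 463 and 419.

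Mitotic kinases had the lowest median of the 8 role groups, a log2 ratio of -0.48 in siSRSF2 over siNC, with 5 of 6 called lower. Plk1, the Polo-like kinase of mitotic entry and spindle assembly, had 59.5 CPM in siSRSF1, 34.1 in siSRSF2 and 55.9 in siNC, a siSRSF2 ratio of 0.611 (0.544 to 0.686). Nek2, a centrosome kinase, had 118.6, 76.0 and 104.0 CPM in siSRSF1, siSRSF2 and siNC, a siSRSF2 ratio of 0.731 (0.674 to 0.792) and a siSRSF1 ratio of 1.14 (1.06 to 1.23). The siSRSF2 library was again the low one for both. The checkpoint kinases Ttk and Bub1 had siSRSF2 ratios of 0.689 and 0.707. Aurka, the centrosomal Aurora kinase, stood at 0.756 (0.684 to 0.836), and Aurkb, the kinase of the chromosomal passenger complex, at 0.818 (0.728 to 0.919), short of the size for a call. Their intervals overlap. Bub1 was below siNC in siSRSF1 too, at 0.837 (0.761 to 0.921).

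Genes around the anaphase-promoting complex, the ubiquitin ligase that ends mitosis, were split in siSRSF2. In siSRSF1, 3 of 4 lay above siNC with intervals that exclude 1, against 3159 of all 11602 genes compared. Cdc20, its mitotic activator, had 139.6 CPM in siSRSF1, 71.5 in siSRSF2 and 109.4 in siNC. Ube2c, the E2 enzyme that starts its ubiquitin chains, had 104.7, 62.0 and 88.7 CPM in siSRSF1, siSRSF2 and siNC. Both had their highest value in siSRSF1 and their lowest in siSRSF2. The ratio of Cdc20 was 1.28 (1.19 to 1.37) in siSRSF1 over siNC, 0.654 (0.603 to 0.709) in siSRSF2 over siNC and 0.513 (0.475 to 0.552) in siSRSF2 over siSRSF1. Those of Ube2c were 1.18 (1.09 to 1.28), 0.699 (0.64 to 0.763) and 0.592 (0.545 to 0.643). Correction for transcript GC content put Cdc20 at 1.18 in siSRSF1 and correction for length at 1.19, and each ended that call.

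The 2 substrates grouped with these partners had other values. Pttg1, which encodes securin, the inhibitor of separase, was low in each library, with 78 reads in siSRSF1, 114 in siSRSF2 and 88 in siNC. Its siSRSF2 ratio was 1.09 (0.816 to 1.45) to siNC and 1.4 (1.04 to 1.89) to siSRSF1, which made it the 1 member called higher between the siRNA libraries. Cdca3, another substrate, which helps to remove the kinase WEE1, had 67.3, 55.0 and 57.3 CPM in siSRSF1, siSRSF2 and siNC, and its siSRSF2 ratio of 0.961 (0.868 to 1.06) has an interval that includes 1.

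Kinetochore and checkpoint genes were lower in siSRSF2 for 6 of 8 members, with a median log2 ratio of -0.37. Cenpf, a large protein of the outer kinetochore, had 170.6 CPM in siSRSF1, 121.9 in siSRSF2 and 185.4 in siNC, a siSRSF2 ratio of 0.658 (0.618 to 0.699). Cenpa, the histone H3 variant that marks the centromere, stood at 0.663 (0.598 to 0.736), and Cenpe, a kinesin motor of the kinetochore, at 0.783 (0.732 to 0.836). These 3 had siSRSF1 ratios between 0.908 and 0.973. Mad2l1, the checkpoint inhibitor of CDC20, stood at 0.763 (0.7 to 0.831) in siSRSF2 and at 0.833 (0.766 to 0.907) in siSRSF1. Its partner Bub1b was less far from the control, at 0.888 (0.806 to 0.979) in siSRSF2 and 0.996 in siSRSF1.

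The subunits of the NDC80 complex, which binds microtubules, did not move as a unit. In siSRSF2 over siNC, Nuf2 stood at 0.782 (0.71 to 0.862) and Spc25 at 0.77 (0.751 to 0.788). Ndc80, with 62.2, 60.4 and 58.6 CPM in siSRSF1, siSRSF2 and siNC, stood at 1.03 (0.934 to 1.14), an interval that overlaps neither. Spc25 also stood apart in level. Its FPKM, a level per length, was 382.6 in siSRSF1, 269.2 in siSRSF2 and 339.8 in siNC, whereas Ndc80 and Nuf2 had between 8.67 and 10.8 FPKM in the 3 libraries. Spc25 (ENSMUSG00000005233, minus strand) lies 4878 bases from G6pc2, the islet glucose-6-phosphatase gene on the plus strand of chromosome 2, which had 1110.6, 1059.0 and 1340.0 FPKM in siSRSF1, siSRSF2 and siNC. The 2 genes face away from each other, with their starts on either side of this gap. The part of the neighbour in the Spc25 reads was not tested, and leaving Spc25 out moved the summed siSRSF2 ratio of the members to 0.774.

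**Figure D3:**
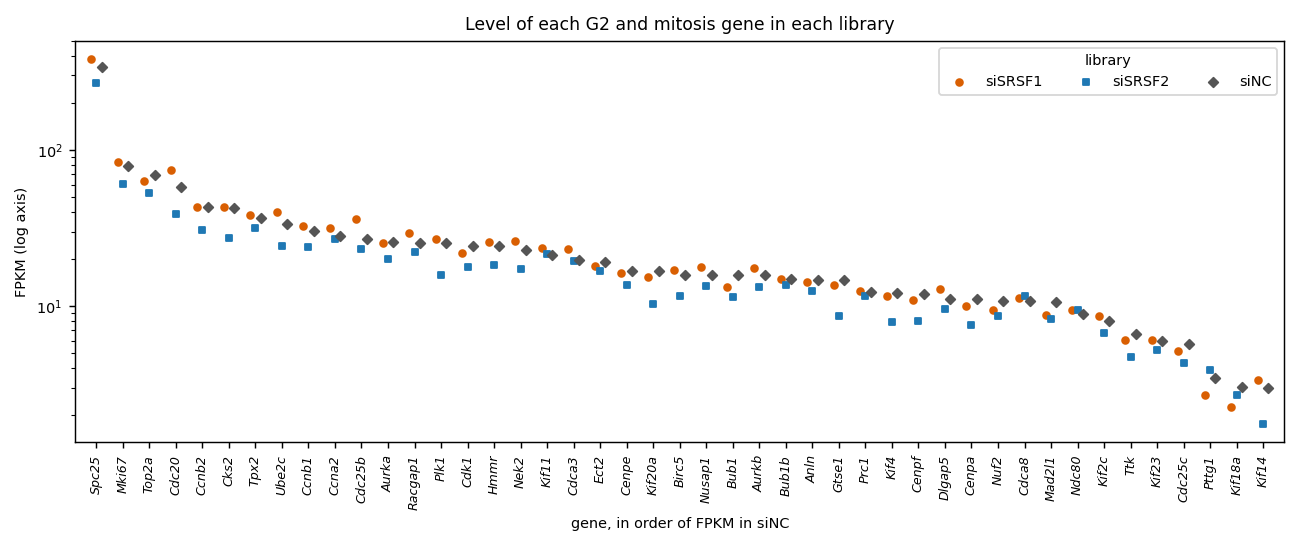
FPKM of each of the 45 genes on a log axis in siSRSF1, siSRSF2 and siNC, in order of the siNC level. Spc25 is the highest at 339.8 FPKM in siNC, Mki67 follows at 79.4, and Kif14 is the lowest at 3.01, with the siSRSF2 square lowest at most genes.

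By FPKM, Spc25 was followed in siNC by Mki67 (79.4), Top2a (68.7), Cdc20 (58.0) and Ccnb2 (43.2), and the lowest were Pttg1 (3.47), Kif18a (3.02) and Kif14 (3.01). The median member had 17.1 FPKM in siSRSF1, 13.5 in siSRSF2 and 15.9 in siNC, against a median of 7.49 in siNC over all genes compared. Mki67, the surface coat protein of mitotic chromosomes that serves as a proliferation marker, had 847.5 CPM in siSRSF1, 595.8 in siSRSF2 and 806.4 in siNC. Its siSRSF2 ratio was 0.739 (0.718 to 0.76), and that of Top2a, the topoisomerase that untangles sister chromatids, was 0.749 (0.725 to 0.773). Both have narrow intervals because of their depth. In siSRSF1 they stood on opposite sides of siNC, at 1.05 and 0.925.

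Kinesins, the motors of the spindle, had a wide range in siSRSF2, with 3 of 7 called lower and a median log2 ratio of -0.29. Kif14, a motor of cytokinesis (ENSMUSG00000041498, GRCm38 chromosome 1, 136466343 to 136531511), had 505 reads in siSRSF1, 268 in siSRSF2 and 396 in siNC. It had the lowest siSRSF2 ratio of all 45 members, 0.569 (0.485 to 0.665), and 0.508 (0.436 to 0.59) against siSRSF1. Kif20a, the midzone motor that carries the passenger complex, had 67.7, 44.1 and 73.4 CPM in siSRSF1, siSRSF2 and siNC, a siSRSF2 ratio of 0.601 (0.543 to 0.665). Kif4, the chromosome arm motor that sets midzone length, stood at 0.634 (0.571 to 0.703). No other kinesin among the members was called lower in siSRSF2. Kif20a overlaps the APC/C subunit gene Cdc23 on the other strand, which stood at 0.841 in siSRSF2, and Kif4 overlaps Pdzd11.

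The other kinesins had higher ratios. Kif11, the motor that pushes spindle poles apart, had 177.8, 157.5 and 160.3 CPM in siSRSF1, siSRSF2 and siNC, and its siSRSF2 ratio was 0.983 (0.926 to 1.04), an interval that does not overlap those of Kif14, Kif20a or Kif4. Kif2c, which depolymerises microtubules, stood at 0.817 (0.714 to 0.934) and Kif23, a motor of the central spindle, at 0.856 (0.764 to 0.96). Kif18a, which dampens chromosome movement, had 22.5, 26.2 and 30.0 CPM in siSRSF1, siSRSF2 and siNC. It was the 1 member called lower in siSRSF1, at 0.752 (0.646 to 0.874), and it had the lowest transcript GC content of the members, 38.3%. GC correction put it at 0.835, and its siSRSF2 ratio was 0.875 (0.758 to 1.01).

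Among 8 genes of the passenger complex, the spindle and the midzone, 3 were called lower in siSRSF2 and the median log2 ratio was -0.27. Gtse1, a microtubule tip protein that also restrains p53, had 37.8 CPM in siSRSF1, 23.2 in siSRSF2 and 40.7 in siNC, a siSRSF2 ratio of 0.571 (0.496 to 0.655). Birc5, which encodes survivin of the passenger complex, stood at 0.71 (0.634 to 0.794) and Hmmr, a spindle assembly factor, at 0.737 (0.686 to 0.79). Cdca8, which encodes borealin of the same passenger complex, had 59.0, 59.1 and 56.6 CPM in siSRSF1, siSRSF2 and siNC, a siSRSF2 ratio of 1.04 (0.946 to 1.15). The intervals of Birc5 and Cdca8 do not overlap. Cdca8 overlaps the gene 9930104L06Rik on the other strand. The microtubule-binding proteins Tpx2, Nusap1, Dlgap5 and Prc1 stood between 0.825 and 0.904, with intervals below 1.

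Cytokinesis genes had the highest group median in siSRSF2, a log2 ratio of -0.24. Anln (anillin, which scaffolds the contractile ring), Racgap1 (a subunit of centralspindlin) and Ect2 (which activates RhoA at the cleavage site) had siSRSF2 ratios of 0.822, 0.845 and 0.854. All 3 had intervals below 1, and none was called. Racgap1 was above siNC in siSRSF1, at 1.16 (1.09 to 1.22), and its siSRSF2 ratio to siSRSF1 was 0.732 (0.692 to 0.773). Set side by side, the median siSRSF2 ratio to siNC was 0.719 for mitotic kinases, 0.776 for kinetochore and checkpoint genes, 0.817 for kinesins and 0.819 for partners and substrates of the anaphase-promoting complex. Against siSRSF1 the order was another, with 0.751 for kinases, 0.845 for kinetochore genes, 0.76 for kinesins and 0.696 for the partners and substrates. Single members of the 4 groups overlapped in both comparisons.

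Lists of further mitotic genes, which hold none of the 45, gave different counts in siSRSF2, to be read against the 13.2% of all genes called lower. Of 29 other genes of the G2/M programme, 25 had a siSRSF2 ratio to siNC below 1 and 16 were called lower, with a median log2 ratio of -0.34. Troap, a spindle protein, stood at 0.524 (0.453 to 0.606), the tubulin gene Tubb4b at 0.586, Pimreg at 0.6 and Cks1b, the paralog of Cks2, at 0.624 (0.532 to 0.731). Of 6 further mitotic kinesins 4 were called lower, with Kif18b at 0.573 and Kifc1 at 0.623. Of 32 further kinetochore genes 6 were called lower, with a median of -0.07, and Cenpi stood at 0.673 and Incenp, the passenger complex scaffold, at 0.7 (0.642 to 0.764). Condensin and cohesin genes had a median of -0.11, with 2 of 17 called lower, Espl1 (separase) at 0.706 and Ncaph2 at 0.739. For these last 2 lists the share called lower was near that of all genes. Their ratios lay below 1 for 21 of 32 kinetochore genes and 15 of 17 condensin and cohesin genes, against 47.4% of all genes. The interval lay wholly below 1 for 10 of the 32 and 9 of the 17, against 25.4%.

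Of 17 genes for subunits, activators and E2 enzymes of the anaphase-promoting complex outside the 45, 1 was called lower (Cdc26) and 3 higher (Fzr1, Anapc16 and Ube2s) in siSRSF2, with a median log2 ratio of -0.13. These counts are near the 13.2% lower and 16.6% higher among all genes, and the difference from the 4 partners and substrates, whose ratios overlap these, was not tested. Fzr1, the activator that replaces CDC20 after mitosis, had 962 reads in siSRSF1, 966 in siSRSF2 and 559 in siNC, a ratio of 1.51 (1.36 to 1.68) in siSRSF1 and 1.45 (1.31 to 1.61) in siSRSF2. Ube2s, the E2 enzyme that extends the chains begun by UBE2C, stood at 1.89 (1.79 to 2.01) in siSRSF1 and 1.28 (1.2 to 1.36) in siSRSF2. Fbxo5, the inhibitor EMI1, stood at 1.05 in siSRSF1 and 0.853 (0.753 to 0.966) in siSRSF2.

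The kinases that hold CDK1 inactive lay above siNC in both siRNA libraries. Wee1 had 886 reads in siSRSF1, 957 in siSRSF2 and 521 in siNC, a ratio of 1.49 (1.34 to 1.67) in siSRSF1 and 1.54 (1.38 to 1.72) in siSRSF2. Pkmyt1 had 489, 508 and 283 reads in siSRSF1, siSRSF2 and siNC, a ratio of 1.51 (1.31 to 1.76) in siSRSF1 and 1.51 (1.3 to 1.75) in siSRSF2. Neither differed between the siRNA libraries beyond its interval, at 1.03 and 0.994, and these values share the siNC library.

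Genes for the regulators of the programme were mixed. Of 16, none was called lower in siSRSF2 and 1 was higher, Rb1 at 1.26 (1.14 to 1.38), against 13.2% and 16.6% of all genes. The 16 had a median log2 ratio of 0.05, with 4 intervals wholly below 1 and 4 wholly above. Over all 11611 genes compared, 25.4% had an interval wholly below 1 and 3265 genes had one wholly above, which is near these counts. Foxm1 had 1399 reads in siSRSF1, 1358 in siSRSF2 and 1310 in siNC, a siSRSF2 ratio of 0.87 (0.806 to 0.94), and Mybl2, the MYB subunit of MMB, stood at 1.18 (1.0 to 1.39). Genes of G1/S and replication, the nearest other cell cycle phase, had a median of 0.03 over 42 genes in siSRSF2. Of the 42, 18 lay below 1, against 47.4% of all genes, and 3 were called lower and 1 higher, against 13.2% and 16.6%. Of those called lower, Ccne2 stood at 0.724 (0.66 to 0.793), and Fen1, at 0.575, rests on 34 reads in siSRSF2 and 50 in siNC. Summed over the list, the G1/S ratio was 1.0 (0.993 to 1.02) in siSRSF2 and 1.09 (1.08 to 1.1) in siSRSF1, while the 45 mitotic genes stood at 0.773 in siSRSF2.

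**Figure D4:**
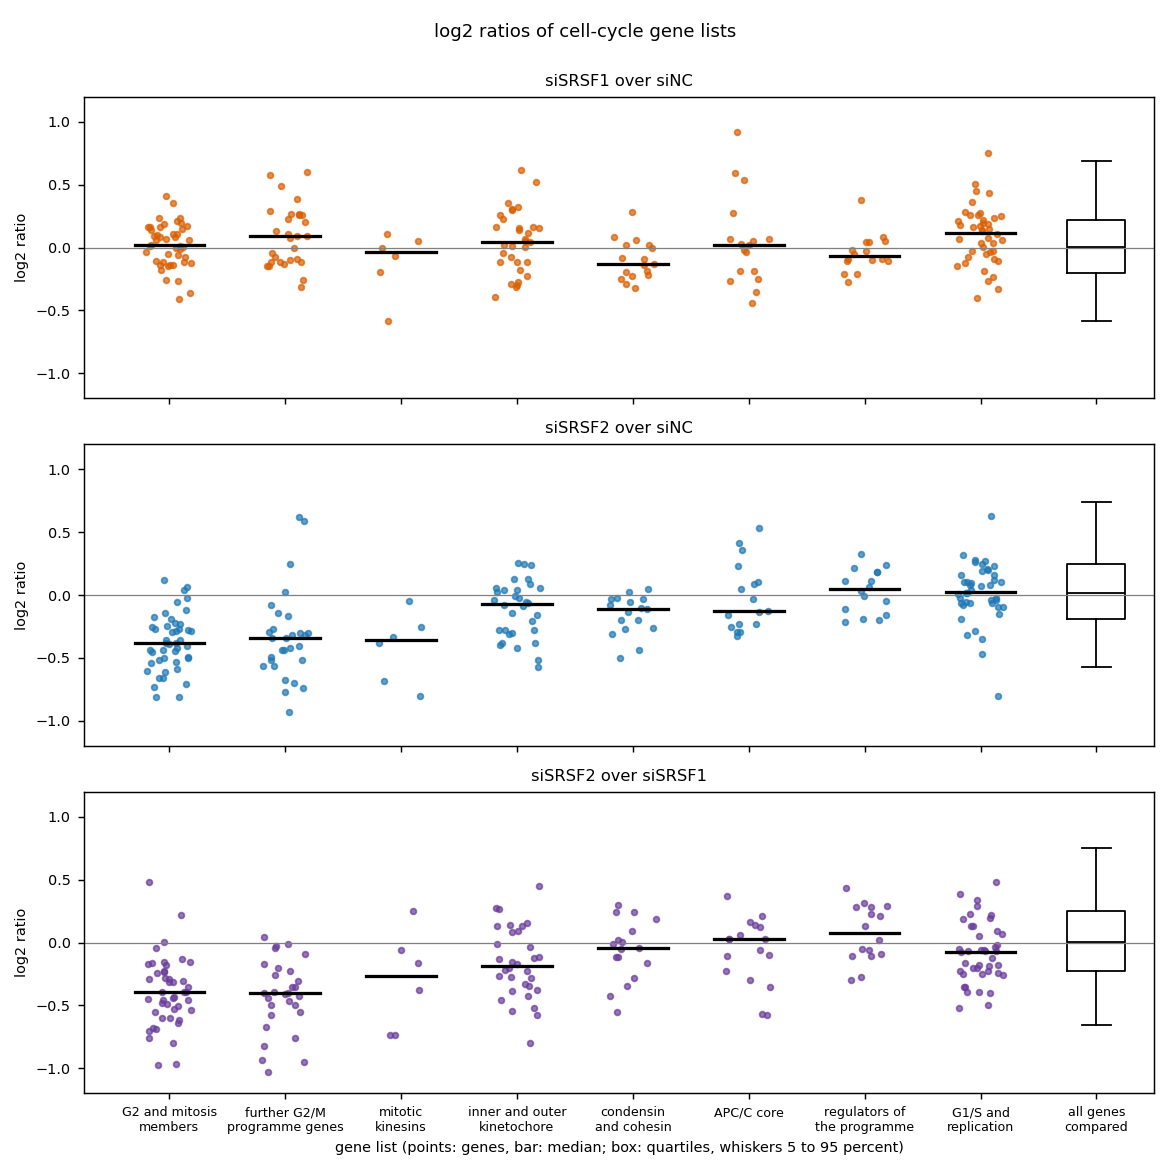
log2 ratios of the 45 members and 7 further cell cycle lists in siSRSF1 over siNC, siSRSF2 over siNC and siSRSF2 over siSRSF1. Points are genes, bars are list medians, and the box gives the quartiles of all genes compared with whiskers at the 5 and 95 percentiles. In siSRSF2 over siNC the medians are -0.38 for the members, -0.34 for further G2/M genes and -0.36 for further kinesins, and 0.03 for G1/S genes.

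The members also share properties that can move read counts. Their median transcript GC content was 46.5%, against 49.9% over all genes compared, their median length in the table was 4919 bases against 4661, and they had a median of 15 exons against 9. In siSRSF1, the log2 ratio to siNC was higher at higher transcript GC content, over the 45 members (Spearman rho 0.44, Pearson r 0.53) and over 11589 genes (rho 0.34), which are genes of the same 2 libraries. The members with the highest siSRSF1 ratios, Cdc25b and Cdc20, had GC contents of 54.2% and 55.6%. Other GC-rich members varied in their siSRSF1 ratios. Ube2c, with 55.5%, stood at 1.18 (1.09 to 1.28). Plk1, with the highest GC content (56.0%), stood at 1.07 (0.963 to 1.18), and Gtse1, with 54.3%, at 0.929 (0.821 to 1.05). In siSRSF2 over siNC the relation was weak and of the other sign over the members, with a rho of -0.19, against 0.17 over all genes. After GC correction 24 members were called lower in siSRSF2 over siNC and the median log2 ratio was -0.35. In siSRSF2 over siSRSF1 the rho with GC content was -0.48 over the members (Pearson r -0.49), against -0.14 over all genes. There the median log2 ratio of the members was -0.39 after GC correction. Outside the 45, Pkmyt1, Fzr1 and Ube2s, all called higher in siSRSF1, had GC contents of 62.55%, 59.93% and 58.48%, while Wee1 had 49.75%. The part of GC content in the ratios of these genes was not tested. Of the 45 members, 11 overlap another gene on the other strand, and reads of such a pair cannot be told apart if the counting ignored strand.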

How the data were processed

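RNA was measured by sequencing in 3 MIN6 libraries, 1 per group. Per the file headers, the deposited table holds a read count and an FPKM per gene and library, and the authors give the counts without normalisation. FPKM was checked to equal the count per length and column total within 0.00045 percent. The submitters' processing notes name Bowtie2 2.4.2 and the build mm10, which is GRCm38. The sources used here do not state which program counted reads, with which annotation or strand setting.

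Lines sharing a symbol (67 of 21935) were summed. Counts were scaled by TMM in edgeR 4.0.16. Ratios used a prior of 0.5 reads, with 95% Clopper-Pearson counting intervals turned into ratios, in scipy 1.17.1. Genes with at least 20 reads in 1 library of a pair were compared, and calls needed a ratio of at most 0.8 or at least its inverse (or 2-fold) and an interval without 1. A floor of 3 reads equals 0.209, 0.2 and 0.239 CPM in siSRSF1, siSRSF2 and siNC. The interval calculation was tested on simulated data. GC content came from GENCODE M21 transcripts for 99.5% of symbols, and promoter windows from RefSeq. Alternatives changed scaling, minimum, prior, GC and length (lowess, statsmodels 0.14.6).

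Members and lists were chosen with earlier results of these data known. Every member may be named, and other lists by their 3 lowest and 2 highest ratios per comparison, plus 8 fixed genes. G6pc2 and Spc24 were named after their values were seen. Cdc23, Pdzd11, Gm3550, 9930104L06Rik, Spef1 and Exosc9 are outside this rule and are named as genes that overlap a member.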

Additional observations from a re-analysis of the deposited data

How the results depend on the processing

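Under the 8 alternatives tried (median-of-ratios factors, plain totals, totals without Ins1 and Ins2, no minimum of reads, at least 100 reads over the pair, a prior of 2 reads, GC correction and length correction), the median log2 ratio of the members stayed between -0.40 and -0.34 in siSRSF2 over siNC, between -0.40 and -0.35 in siSRSF2 over siSRSF1, and between 0.02 and 0.08 in siSRSF1 over siNC. The members called lower, at 0.8 or less, numbered 24 to 26 in siSRSF2 over siNC and 25 to 30 in siSRSF2 over siSRSF1. In siSRSF1 over siNC, GC correction left 0 members called lower and 1 called higher, and length correction gave 2 lower (Pttg1 at 0.729 and Kif18a) and 1 higher, where the uncorrected ratios gave 1 and 2. In siSRSF2 over siSRSF1, 1 member, Kif14, passed 2-fold with GC correction (0.492) and with length correction (0.487), where 0 had done so before. No called member changed direction. No paired analysis was possible because each group holds 1 library. For the same reason no library could be left out, and the spread between cultures is unknown. Depth limits Pttg1 most, since it had at most 114 reads in a library.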

Other observations

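Inhibitors of the cyclin-dependent kinases of G1 had mixed values. Of 9 genes of cell cycle arrest, 8 were compared, and all 8 had a ratio to siNC above 1 in siSRSF1, with 3 called higher at a ratio of at least the inverse of 0.8, against 14.7% of all genes, and a median log2 ratio of 0.23. In siSRSF2 the median was 0.04, with 2 called higher and 2 called lower, against 16.6% and 13.2% of all genes. Cdkn2b, which encodes p15, had 325 reads in siSRSF1, 467 in siSRSF2 and 186 in siNC, a ratio of 1.53 (1.28 to 1.85) in siSRSF1 and 2.1 (1.77 to 2.51) in siSRSF2. Cdkn2a, the p16 and p19ARF locus, had 1810, 1569 and 1032 reads, a ratio of 1.54 (1.42 to 1.66) in siSRSF1 and 1.28 (1.18 to 1.38) in siSRSF2. Its transcript GC content was 60.22%, and the part of GC content in its ratios was not tested. Cdkn2d, which encodes p19INK4d, had 969, 668 and 790 reads and was lower in siSRSF2, at 0.71 (0.639 to 0.788), as was Btg2, an antiproliferative gene, at 0.79 (0.728 to 0.856).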
